A study of Rattus norvegicus with 24 samples.

Results

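The genes described here encode the subunits of the proteasome, together with its activators, its inhibitor and its assembly chaperones. They were taken as the probe sets of the rat array whose single platform gene symbol begins with Psma, Psmb, Psmc, Psmd, Psme, Psmf or Psmg, apart from 1 gene left out, and where a gene had several probe sets the one with the highest mean over the 24 arrays stood for it. This gave 45 genes on 59 probe sets, out of 14217 genes with a single-symbol probe set and 31042 probe sets in all. Of the 45 genes, 43 passed the filter on low signal; Psmb9 and Psmc3ip did not. Psmc3ip, a meiotic recombination protein, and Psme3ip1, a protein that binds the activator Psme3, were matched by symbol only and are not subunits. Psmb6 and Psme3 were read only by probe sets that carry symbols of several genes, so they are not among the 45.

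The study asked how rat models of attention deficit hyperactivity disorder differ in the brain. The genetic model is the inbred spontaneously hypertensive rat (SHR, 8 rats), set against Wistar-Kyoto rats (WKY, 8 rats), the strain it was bred from. The environmental model is the Sprague-Dawley rat after exposure to polychlorinated biphenyls (SD-PCB, 4 rats), set against Sprague-Dawley rats without exposure (SD, 8 rats). All rats were male and were taken between postnatal day 55 and 65. Each strain group gave 1 Affymetrix RAE 230 2.0 array for each of 6 regions: hippocampus, prefrontal cortex, cerebellar vermis, dorsal and ventral striatum, and a midbrain piece of substantia nigra and ventral tegmental area (VTA). The dose and timing of the biphenyl exposure, and whether an array holds RNA of 1 rat or more, are not given in the sources used here.

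The proteasome degrades proteins that carry ubiquitin chains. Its 20S core is a barrel of stacked rings, with outer alpha rings that gate the entry and inner beta rings that hold the catalytic sites. The 19S cap binds ubiquitin chains and has a base of ATPases that unfold and feed the substrate and a lid that holds the deubiquitinase Psmd14. Other activators can replace the 19S cap, among them the 11S ring of Psme1 and Psme2, which in immune cells is induced by interferon gamma together with the immunoproteasome beta subunits. When proteasome activity falls, the factor Nfe2l1 raises transcription of subunit genes through antioxidant response elements. In neurons the proteasome takes part in the turnover of synaptic proteins.

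Promoter sequence was available from RefSeq (build GRCr8) for 41 of the 45 genes, and 5 promoters are shown because the results turn on these genes or because they hold a match to a motif of the pathway. Each is the 250 bases before the annotated gene start, written 5' to 3' on the strand of the gene. Psmd1, the base scaffold with the largest difference between SHR and WKY among tested genes, lies at chr9:94157721-94157970 on the plus strand. Psma3, an alpha ring gene higher in SD-PCB arrays and in the vermis, lies at chr6:95219499-95219748 on the plus strand. Psmb5, the chymotrypsin-like catalytic subunit, lies at chr15:32047380-32047629 on the minus strand. In these 3 promoters the capitals mark a match to the antioxidant response element. The activator pair Psme1, at chr15:33038721-33038970 on the plus strand, and Psme2, at chr15:33052752-33053001 on the minus strand, differed most from the other regions in the substantia nigra/VTA. The capitals in Psme2 mark a match to the interferon-stimulated response element, and Psme1 is all in lower case because these letters were not found in its window.
Psmd1: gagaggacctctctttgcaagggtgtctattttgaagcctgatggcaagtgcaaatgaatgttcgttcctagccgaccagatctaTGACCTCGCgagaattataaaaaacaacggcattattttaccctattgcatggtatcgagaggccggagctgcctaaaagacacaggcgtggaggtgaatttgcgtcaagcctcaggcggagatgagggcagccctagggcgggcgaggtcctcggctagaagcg
Psma3: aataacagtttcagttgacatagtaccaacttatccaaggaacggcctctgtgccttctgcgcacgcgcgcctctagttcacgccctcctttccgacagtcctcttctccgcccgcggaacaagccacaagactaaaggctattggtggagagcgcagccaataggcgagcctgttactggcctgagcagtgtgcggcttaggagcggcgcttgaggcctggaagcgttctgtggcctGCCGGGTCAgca
Psmb5: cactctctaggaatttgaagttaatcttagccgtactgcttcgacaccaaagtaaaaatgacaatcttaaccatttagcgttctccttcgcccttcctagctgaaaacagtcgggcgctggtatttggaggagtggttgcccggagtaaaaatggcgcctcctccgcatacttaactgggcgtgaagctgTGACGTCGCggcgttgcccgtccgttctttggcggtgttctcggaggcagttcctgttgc
Psme1: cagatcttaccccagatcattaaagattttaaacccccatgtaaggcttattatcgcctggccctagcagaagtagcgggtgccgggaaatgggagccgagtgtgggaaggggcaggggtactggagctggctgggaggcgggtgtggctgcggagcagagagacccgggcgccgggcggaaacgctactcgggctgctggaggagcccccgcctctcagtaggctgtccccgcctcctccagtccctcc
Psme2: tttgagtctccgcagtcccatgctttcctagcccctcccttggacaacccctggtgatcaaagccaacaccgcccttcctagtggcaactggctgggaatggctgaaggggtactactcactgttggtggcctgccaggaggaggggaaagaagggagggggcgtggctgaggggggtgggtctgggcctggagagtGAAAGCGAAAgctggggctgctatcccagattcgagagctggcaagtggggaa
The matches start 165, 12, 60 and 53 bases before the gene start in Psmd1, Psma3, Psmb5 and Psme2. Motifs were searched on both strands, each on its own and without regard to overlap with another. The antioxidant response element, TGACNNNGC, was found in 6 of the 41 promoters (14.6%), against 10.1% of all 33469 RefSeq promoters of the same length. The CCAAT box was found in 20 of 41 (48.8%), against 34% of all promoters. The interferon-stimulated response element, searched as GAAA, then 2 bases of any kind, then GAAA, was found in 5 of 41 (12.2%; Psma4, Psmb3, Psmb10, Psmd7 and Psme2), against 3.41% of all promoters. These matches are descriptions of letters and say nothing of whether a factor binds there.

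Median array signal ranged from 131.7 to 178.2 on SHR arrays, 108.9 to 152.6 on WKY arrays, 89.0 to 126.2 on SD-PCB arrays and 130.7 to 183.8 on SD arrays. The deposited scaling therefore left the middle of the arrays unequal. SD-PCB arrays lie below all SD arrays in it, and SHR lies above WKY in 6 of 6 regions, so in both comparisons this difference and the strain or exposure cannot be told apart. Region markers mostly followed the labels, with Gabra6 between 17285 and 24459 on the 4 vermis arrays and Drd1 between 4870 and 6100 on the 4 dorsal striatum arrays. The dopamine neuron markers were uneven over the 4 substantia nigra/VTA arrays, with Slc6a3 between 955 and 8411 and Th between 217 and 3742. The lowest of these Th values lay within the range of the dorsal striatum (1.29 to 249). A further exception was the WKY prefrontal cortex array. There the cerebellar genes Gabra6 and Pcp2 read 2297 and 668, against at most 97.0 and 76.2 on the other 3 prefrontal arrays. Results that rest on this array are also given without it. Differences between strain groups are mean log2 differences over the 6 regions ± standard error from a limma fit, with p-values adjusted over 15521 probe sets. Because all 6 regions of a strain group share their rats, such a p-value reflects how well regions agree, and it understates the uncertainty about strain or exposure. In tissue pieces such as these, fewer cells of a type and less RNA per cell cannot be told apart.

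Most proteasome genes were bright: 26 of the 43 tested lie in the brightest 25% of tested probe sets. The immunoproteasome subunit Psmb9, below the filter, read 6.01 to 106.1 over the 24 arrays. Among tested genes the standard deviation of the 6 region means was widest for Psme1 (0.45 on the log2 scale) and narrowest for Psma4 (0.060). Over the 4 strain group means it was widest for Psmd1 (0.44), Psmc4 (0.44) and Psmd8 (0.41). The 2 kinds of spread fell on different genes in part: Psmd8 had a spread of 0.088 over regions, and Psmd12 a spread of 0.048 over strain groups against 0.26 over regions.

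Comparing SHR with WKY asks how the genetic model differs from its parent strain. Of the 17 genes of the 19S cap, 9 were higher in SHR, namely the base scaffold Psmd1, 4 ATPases and 4 lid genes, while the alpha ring gene Psma1, the beta ring gene Psmb4, the lid gene Psmd11 and the activator Psme4 were lower. In all, 13 of the 43 genes tested were higher in SHR and 4 were lower, and 26 did not pass the test. Among all tested probe sets 16.4% were higher and 15.7% lower; among the brightest 25%, where most of these genes lie, the shares were 13.1% and 25.4%. The median log2 difference of the 45 genes was 0.17, against 0.040 for all tested probe sets and -0.07 for the brightest 25%. When each array was centred on its own median, the median over all tested probe sets moved to -0.30 and that of the proteasome genes to -0.17, with 3 genes higher and 13 lower, so the direction of the list depends on the scaling. With no filter on low signal the median of the proteasome genes lay below that of all probe sets, by -0.04, where it lay above by 0.12 with the filter.

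**Figure D1:**
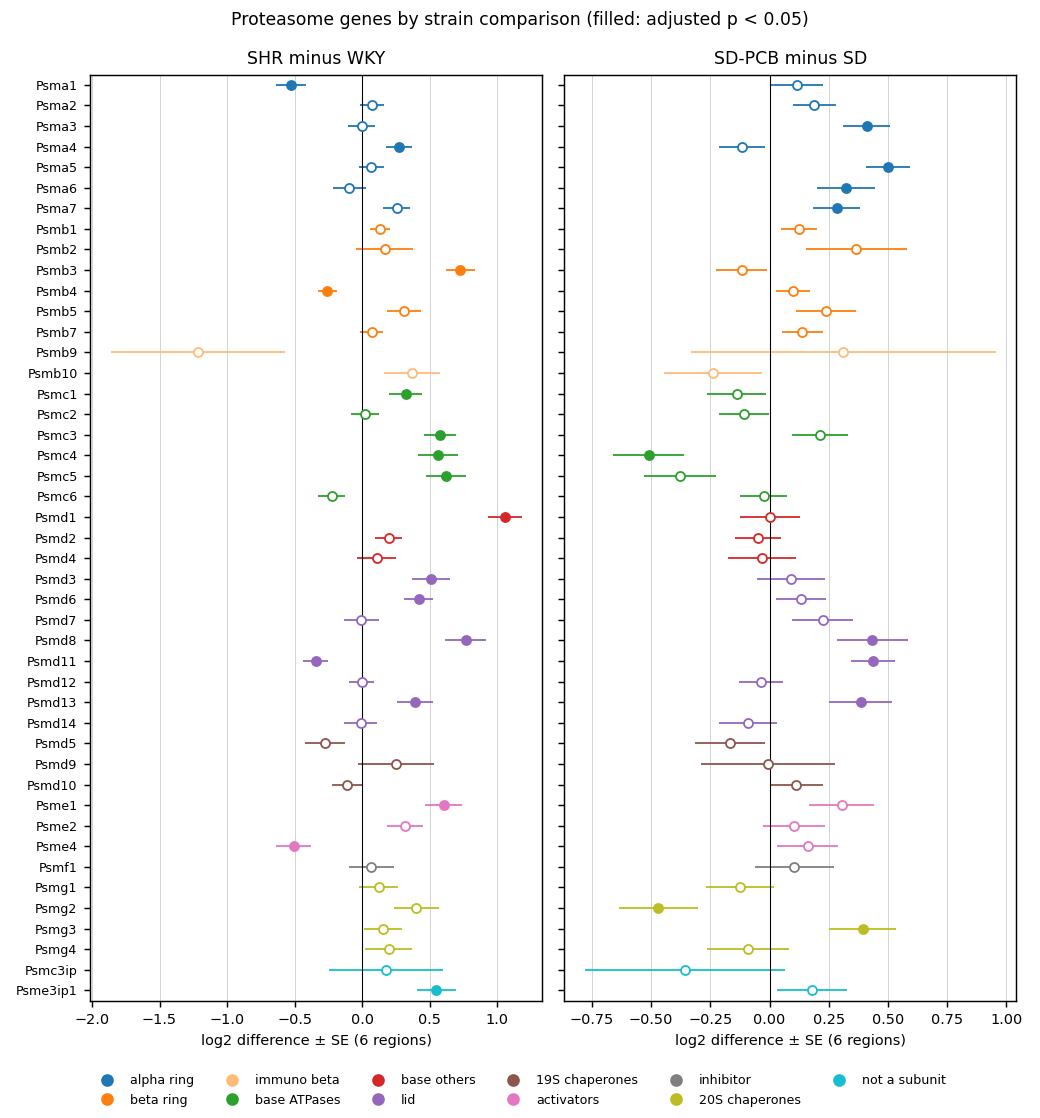
Log2 difference ± standard error of each of the 45 genes for SHR minus WKY (left) and SD-PCB minus SD (right), coloured by role; filled circles passed an adjusted p of 0.05. Psmd1 lies farthest to the right at 1.05 in SHR minus WKY and at 0.00 in SD-PCB minus SD, and with arrays centred on their medians the bulk of the points moves left of 0 in the first panel and right in the second.

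Among tested genes the base of the 19S cap held the largest difference. Psmb9, below the filter and not tested, gave -1.22. Psmd1, a scaffold of the base, had signals of 1441 to 2921 with a median of 2137 on SHR arrays, against 856 to 1260 with a median of 1024 on WKY arrays. The groups did not overlap, and Psmd1 was higher in SHR in 6 of 6 regions, by 0.75 in the vermis up to 1.27 in the ventral striatum. Its log2 difference was 1.05 ± 0.13, or 2.08-fold (adjusted p = 4.09e-06). Of the 6 ATPases that form the ring of the base, 4 were higher in SHR: Psmc5 (log2 0.62 ± 0.15, adjusted p = 0.00370), Psmc3 (0.57 ± 0.12, adjusted p = 0.00124), Psmc4 (0.56 ± 0.15, adjusted p = 0.00680) and Psmc1 (0.32 ± 0.12, adjusted p = 0.0480). Psmc5 read 1548 to 2942 with a median of 2082 in SHR, against 1136 to 2198 with a median of 1303 in WKY; these ranges overlap, and the WKY substantia nigra/VTA array gave the highest WKY value. The sign of Psmc1 turned when arrays were centred on their medians. Psmc2 and Psmc6 did not pass by their brightest probe sets (0.02 and -0.23), although another tested probe set of Psmc6 was lower in 6 of 6 regions (-0.50 ± 0.12, adjusted p = 0.00282) and the other gave -0.17, and neither did the scaffold Psmd2 (0.20) or the ubiquitin receptor Psmd4 (0.11).

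In the lid, 4 of 8 genes were higher in SHR and 1 was lower. Psmd8 had 591 to 810 with a median of 666 in SHR, against 302 to 465 with a median of 395 in WKY, without overlap, and its log2 difference was 0.76 ± 0.15 (adjusted p = 0.000792). The lid genes Psmd3, Psmd6 and Psmd13 were higher by 0.51, 0.42 and 0.39, with adjusted p of 0.00961, 0.00534 and 0.0314. Psmd11, which in human cells stabilises the joint of cap and core, was lower in SHR in 6 of 6 regions. It read 3271 to 3989 with a median of 3867 in SHR, against 3897 to 5154 with a median of 5010 in WKY, and the log2 difference was -0.35 ± 0.09 (adjusted p = 0.00732). A second tested probe set for Psmd11 gave 0.02 ± 0.11, so the probe sets of this gene disagree. By their brightest probe sets the lid genes Psmd7, Psmd12 and Psmd14 differed by 0.01 or less in size. A second tested probe set of Psmd7 was higher in SHR in 6 of 6 regions but did not pass (0.37 ± 0.15, adjusted p = 0.0700). Other tested probe sets of Psmd14 gave -0.09 and -0.15 and did not pass. Over base and lid together 9 of 17 genes were higher and 1 lower, with a median of 0.32.

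The 20S core was less one-sided: 2 of its 13 genes were higher in SHR and 2 lower, with a median of 0.073. Psmb3, a structural beta subunit without a catalytic site, had 1895 to 2404 with a median of 2088 in SHR, against 1038 to 1467 with a median of 1297 in WKY. All 6 SHR arrays lay above all 6 WKY arrays, and the log2 difference was 0.73 ± 0.11 (adjusted p = 6.55e-05). Psma4 of the alpha ring was higher by 0.27 ± 0.10 (adjusted p = 0.0342), with the sign turned when arrays were centred on their medians. Psma1 was lower by -0.53 ± 0.11 (adjusted p = 0.00144), in 5 of 6 regions, with 1356 to 1896 and a median of 1580 in SHR against 1812 to 2774 and a median of 2342 in WKY. Psmb4, another structural beta subunit, was lower in 6 of 6 regions (-0.26 ± 0.07, adjusted p = 0.00941), with 6506 to 8505 and a median of 7730 in SHR against 7935 to 11696 and a median of 8911 in WKY, ranges that overlap. The catalytic subunits did not pass the test. Psmb5 read 4127 to 5888 with a median of 4636 in SHR, against 3275 to 5140 with a median of 3602 in WKY (0.31 ± 0.12, adjusted p = 0.0602), and Psmb7 differed by 0.07 ± 0.09 (adjusted p = 0.565). The sign of Psmb5 and Psmb7 turned when arrays were centred on their medians.

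Among the activators Psme1, the alpha subunit of the 11S ring, was higher in SHR in 6 of 6 regions. It read 940 to 2429 with a median of 1489 in SHR, against 689 to 1460 with a median of 927 in WKY, with overlap, and the log2 difference was 0.60 ± 0.14 (adjusted p = 0.00232). Its partner Psme2 differed by 0.32 ± 0.13 and did not pass (adjusted p = 0.0681). Psme4, a large single-chain activator, was lower by -0.51 ± 0.13 (adjusted p = 0.00546), while a second tested probe set of the gene gave 0.15 ± 0.15. The immunoproteasome subunit Psmb10 read 235 to 426 in SHR and 192 to 289 in WKY (0.37 ± 0.21, adjusted p = 0.180), and the inhibitor Psmf1 differed by 0.07. None of the 4 chaperones of the core (Psmg1 to Psmg4, 0.12 to 0.40) and none of the 3 chaperones of the base (Psmd5, Psmd9 and Psmd10, -0.28 to 0.25) passed. Psme3ip1, which is no subunit, was higher by 0.55 ± 0.15 (adjusted p = 0.00730).

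**Figure D2:**
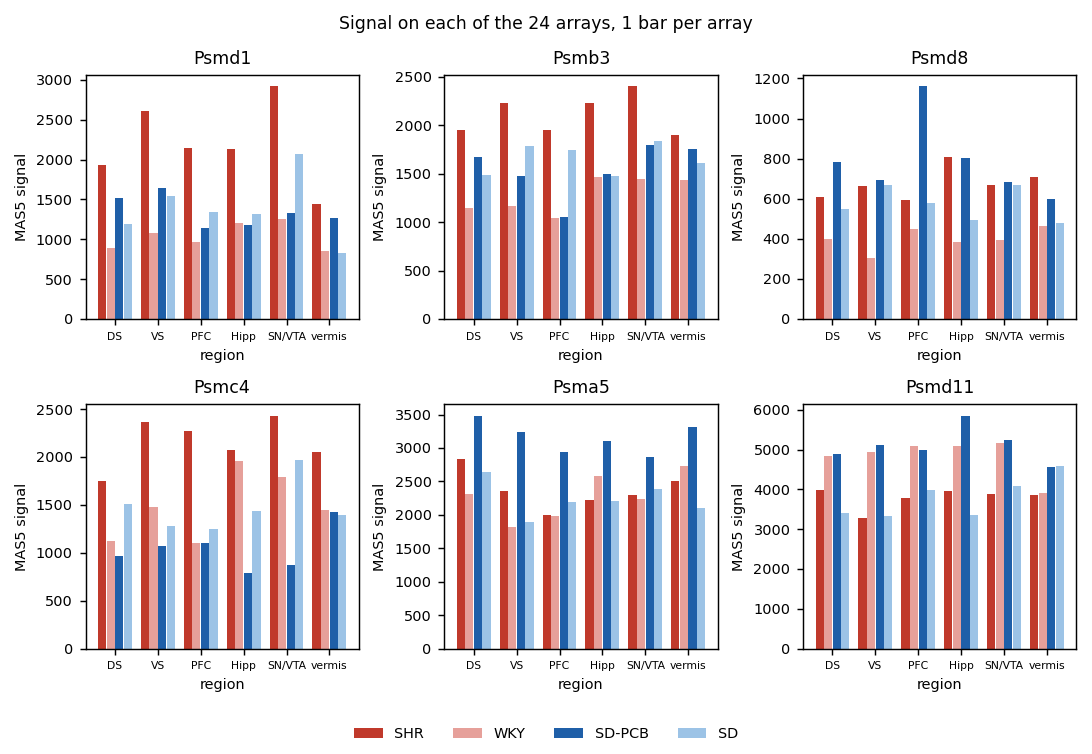
MAS5 signal (linear axis from 0) of 6 genes on each of the 24 arrays, with 1 bar per array and regions along the axis (DS, dorsal striatum; VS, ventral striatum; PFC, prefrontal cortex; Hipp, hippocampus; SN/VTA, substantia nigra with ventral tegmental area). The SHR bars of Psmd1 lie between 1441 and 2921, above the WKY bars at 856 to 1260, and the SD-PCB bars of Psma5 lie between 2859 and 3480, above the SD bars at 1886 to 2640.

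By region, the median log2 difference of the 45 genes between SHR and WKY ran from -0.03 in the vermis to 0.38 in the ventral striatum, each from 1 array a group. Of the 17 calls, 13 held when any single region was left out, and 16 held under both quantile and cyclic loess normalization. Without the WKY prefrontal cortex array 10 genes were higher and 4 lower, and the calls of Psma4, Psmc1 and Psmd13 were lost. With the median signal of each array as a covariate 3 calls held, those of Psmb3, Psmd1 and Psmd3. Markers of other cell types moved with this comparison: 6 of 7 meningeal and fibroblast genes, 4 of 5 endothelial and pericyte genes and 4 of 6 microglial genes tested were higher in SHR, as was the blood gene Hbb (1.71 ± 0.12, adjusted p = 1.84e-09). Astrocyte genes were higher for 2 of 5 and lower for 1, oligodendrocyte genes were higher for 2 of 5, and 0 of 4 neuronal genes passed. Summed meningeal signal was 3919 to 19141 in SHR against 2193 to 7070 in WKY, summed endothelial signal 3061 to 5791 against 1182 to 3306, and summed microglial signal 1108 to 2864 against 848 to 1741, with no marker at 0. Their part in the proteasome differences was not tested.

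Comparing SD-PCB with SD asks how exposure to biphenyls changed the same strain. In exposed rats 4 of 7 alpha ring genes and 3 of 8 lid genes were higher, while the ATPase gene Psmc4 and the core chaperone Psmg2 were lower. Of the 43 genes tested, 8 were higher in SD-PCB and 2 lower, and 33 did not pass. Over all tested probe sets 14.7% were higher and 16.9% lower, and over the brightest 25% 22.6% and 14.6%, so the share of higher genes (18.6%) lies between both backgrounds. The median log2 difference of the 45 genes was 0.11, against -0.01 for all tested probe sets and 0.080 for the brightest 25%. Centring the arrays on their medians moved the median of all tested probe sets to 0.71 and that of the proteasome genes to 0.83, with 41 genes higher and 0 lower, and turned the signs of Psmc4 and Psmg2.

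Of the 7 alpha ring genes 4 were higher in SD-PCB. Psma5 had 2859 to 3480 with a median of 3172 on SD-PCB arrays, against 1886 to 2640 with a median of 2205 on SD arrays. The groups did not overlap, every region had the same sign, and the log2 difference was 0.50 ± 0.09, or 1.42-fold (adjusted p = 0.000308). Psma3 had 1607 to 2606 with a median of 1834 in SD-PCB, against 1299 to 1913 with a median of 1398 in SD (0.41 ± 0.10, adjusted p = 0.00297), and was higher in 6 of 6 regions although the ranges overlap. Psma6 and Psma7 were higher by 0.32 ± 0.12 and 0.28 ± 0.10 (adjusted p = 0.0466 and 0.0363). The other alpha genes Psma1, Psma2 and Psma4 gave 0.11, 0.19 and -0.12 and did not pass. None of the 6 beta ring genes passed, with differences from -0.12 for Psmb3 to 0.37 for Psmb2. The catalytic Psmb5 read 3418 to 4249 with a median of 3807 in SD-PCB, against 2201 to 4855 with a median of 3150 in SD (0.24 ± 0.12, adjusted p = 0.151), and Psmb7 differed by 0.14 (adjusted p = 0.235).

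In the lid Psmd11, Psmd8 and Psmd13 were higher in SD-PCB. The brightest Psmd11 probe set had 4551 to 5847 with a median of 5045 in SD-PCB, against 3330 to 4577 with a median of 3691 in SD (0.44 ± 0.09, adjusted p = 0.00109), while the second tested probe set gave -0.26 ± 0.11. The mean over the Psmd11 probe sets, the dim ones included, was lower in SD-PCB (-0.50, adjusted p = 0.0470), so the direction of this gene depends on the probe set. Psmd8 had 596 to 1162 with a median of 738 in SD-PCB, against 480 to 668 with a median of 564 in SD (0.43 ± 0.15, adjusted p = 0.0313). This gene was higher in 6 of 6 regions, least in the substantia nigra/VTA (0.03) and most in the prefrontal cortex. Psmd13 was higher by 0.38 ± 0.13 (adjusted p = 0.0328). The deubiquitinase gene Psmd14 did not pass by its brightest probe set (-0.09 ± 0.12). Its other 2 tested probe sets did pass, each higher in SD-PCB in 6 of 6 regions and without overlap. Their differences were 0.60 ± 0.12 (adjusted p = 0.000444) and 0.48 ± 0.12 (adjusted p = 0.0036).

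Of the base, Psmc4 was lower in SD-PCB, with 787 to 1429 and a median of 1019 in SD-PCB against 1244 to 1970 and a median of 1417 in SD (-0.51 ± 0.15, adjusted p = 0.0114). It was lower in 5 of 6 regions, from -1.17 in the substantia nigra/VTA to 0.04 in the vermis, and without the substantia nigra/VTA arrays the call was lost (adjusted p = 0.0756). Psmd1, the tested gene with the largest difference between SHR and WKY, gave 0.00 ± 0.13 here. Psmc6 gave -0.02 by its brightest probe set, but another tested probe set had 525 to 841 in SD-PCB against 321 to 460 in SD, without overlap (0.82 ± 0.14, adjusted p = 0.000182). Among the chaperones of the core, Psmg3 was higher (0.39 ± 0.14, adjusted p = 0.0372), with 442 to 1182 and a median of 840 in SD-PCB against 365 to 843 and a median of 679 in SD. Psmg2 was lower in 6 of 6 regions (-0.47 ± 0.17, adjusted p = 0.0336), with 197 to 301 and a median of 224 in SD-PCB against 255 to 402 and a median of 333 in SD. The activators Psme1, Psme2 and Psme4 gave 0.31, 0.10 and 0.16, Psmb10 gave -0.24 and Psmf1 gave 0.11, and none of them passed by the brightest probe set. The second tested probe set of Psme4 gave -0.53 ± 0.15 (adjusted p = 0.00913). The chaperones of the base gave -0.17 to 0.11 and also did not pass.

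Few of these calls held under the alternatives. Of the 10 called genes, Psma5, Psmc4 and Psmd11 held under both quantile and loess normalization, and Psma3, Psma5 and Psmd11 held when any single region was left out. With the array median as a covariate, 0 of the 43 genes and 0 of all 15521 probe sets were called. Endothelial and pericyte genes were higher in SD-PCB for 4 of 5 tested, with summed signal of 4030 to 6780 in SD-PCB against 1561 to 5286 in SD, and the blood gene Hbb was higher (1.06 ± 0.12, adjusted p = 1.71e-06). Oligodendrocyte genes were lower for 3 of 5, with summed signal of 18819 to 33244 in SD-PCB against 27956 to 51069 in SD, and astrocyte genes were lower for 3 of 5. Meningeal genes were lower for 2 of 7, and neuronal genes were higher for 1 of 4 and lower for 1. These marker directions also depend on the scaling, as centring arrays on their medians moved the median of all tested probe sets to 0.71. The part of these markers in the proteasome differences was not tested.

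Whether both models differ from each other in their change was tested as (SHR minus WKY) minus (SD-PCB minus SD). Of the 43 genes 7 were above 0 and 6 below, where 22.0% and 18.4% of all tested probe sets were; with arrays centred on their medians 0 were above and 36 below, and without the WKY prefrontal cortex array 6 and 7. The 5 smallest p-values were those of Psmd11 (-0.78 ± 0.13, adjusted p = 0.000106), Psmd1 (1.05 ± 0.18, adjusted p = 0.000117), Psmb3 (0.84 ± 0.15, adjusted p = 0.000243), Psmc4 (1.07 ± 0.21, adjusted p = 0.000443) and Psmc5 (0.999 ± 0.21, adjusted p = 0.000905). In these contrasts the ATPases Psmc4 and Psmc5 were above 0 in 6 of 6 regions, as were Psmd1 and Psmb3, with the smallest regional value in the vermis for each of the 4 genes (0.11 to 0.46). Alpha ring genes Psma1, Psma3 and Psma5 were below 0, by -0.64, -0.42 and -0.44. All these values are of the brightest probe sets, and a second tested probe set of Psmd11 gave 0.28 ± 0.16 and did not pass. Markers moved with this difference: 5 of 7 meningeal, 5 of 6 microglial, 4 of 5 astrocyte and 3 of 5 oligodendrocyte genes tested, and Hbb, were above 0. Their part in the proteasome values was not tested.

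Against the outbred SD rats, which share their arrays with the SD-PCB comparison above, SHR had 12 genes higher and 1 lower (18.9% and 14.5% of all tested probe sets). The largest were the ATPase Psmc3 (0.80 ± 0.12, adjusted p = 3.66e-05) with 1378 to 1981 in SHR against 813 to 1231 in SD, and the lid gene Psmd13 (0.75 ± 0.13, adjusted p = 0.000232) with 1429 to 1821 against 562 to 1134. Neither pair of ranges overlaps. Psmd1 was higher by 0.69 ± 0.13, and 2 catalytic genes also passed: Psmb5 by 0.60 ± 0.12 (adjusted p = 0.000911) and the immunoproteasome subunit Psmb10 by 0.57 ± 0.21 (adjusted p = 0.0371). By the brightest probe sets, the gene lower in SHR was Psma1 (-0.44 ± 0.11, adjusted p = 0.00451). Other tested probe sets of Psmc6 passed in opposite directions in SHR minus SD. The first was lower in 6 of 6 regions (-0.49 ± 0.12, adjusted p = 0.00309), and the second was higher (0.46 ± 0.14, adjusted p = 0.0166). WKY against SD had 2 genes higher and 3 lower (8.92% and 8.63% of all tested probe sets), or 31 and 0 with arrays centred on their medians and 1 and 2 without the WKY prefrontal cortex array. Psmd8 (-0.52 ± 0.15, adjusted p = 0.0182) and Psmb3 (-0.38 ± 0.11, adjusted p = 0.0192) were lower in WKY in 6 of 6 regions, and both had ranges that do not overlap: 302 to 465 in WKY against 480 to 668 in SD for Psmd8, and 1038 to 1467 in WKY against 1477 to 1833 in SD for Psmb3. Psmd1 was also lower in WKY (-0.37 ± 0.13), and Psmf1 (0.49 ± 0.17) and Psmd11 (0.35 ± 0.09) were higher. A second tested probe set of Psmd11 gave -0.07 ± 0.11 and did not pass. Psmc6 did not pass by its brightest probe set, but another tested probe set was higher in WKY without overlap (0.63 ± 0.14, adjusted p = 0.00381). Of the markers tested, 6 of 7 meningeal and 3 of 5 endothelial genes and Hbb were lower in WKY than in SD. So were 3 of 5 astrocyte, 2 of 5 oligodendrocyte and 2 of 4 neuronal genes. In SHR 4 of 5 endothelial genes and Hbb were higher than in SD, and the endothelial gene Pecam1 was lower (-1.27). Astrocyte genes were higher in SHR for 2 of 5 and lower for 3, and oligodendrocyte genes higher for 1 of 5 and lower for 2. Neuronal genes were lower for 2 of 4, and 1 of 7 meningeal and 1 of 6 microglial genes were higher. The part of these markers was not tested. Since SHR minus WKY shares arrays with both, these values are given side by side and not as separate support.

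Each brain region was set against the average of the remaining 5, with 4 arrays a region, each from a separate set of rats. The substantia nigra/VTA and the vermis had the most calls. In the substantia nigra/VTA 14 of 43 genes were higher and 0 lower, where 16.9% of all tested probe sets were higher and 16.5% lower (23.1% and 20.2% of the brightest 25%). The median of the 45 genes was 0.16, against 0.0096 for all tested probe sets. In the vermis 10 were higher and 9 lower (22.6% and 26.3% of all tested probe sets, 27.3% and 30.8% of the brightest 25%), shares of the 43 genes that lie near or below this background. The dorsal striatum had 0 higher and 4 lower (10.0% and 9.47%) and the prefrontal cortex 1 and 1 (11.7% and 9.85%). No gene passed in limma in the ventral striatum (5.15% and 2.78% of all tested probe sets) or the hippocampus (6.44% and 3.90%), where 3 genes in each had an unadjusted p under 0.05.

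**Figure D3:**
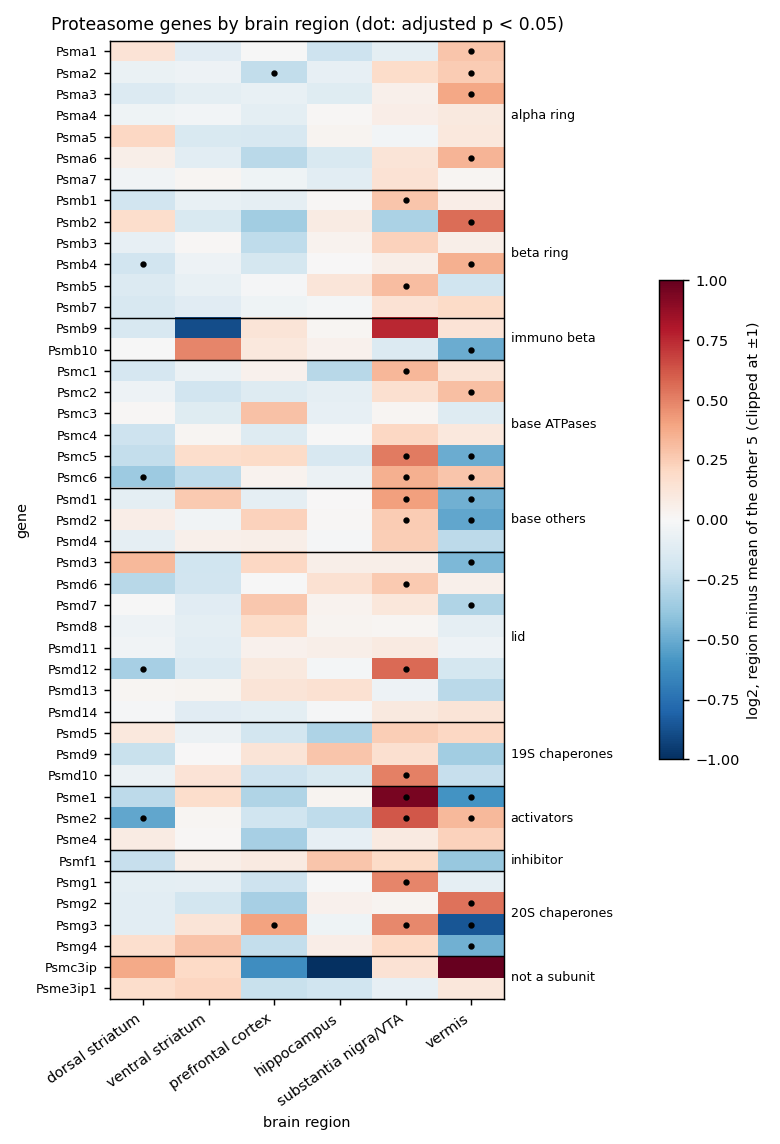
Heat map of the log2 difference between each region (columns) and the mean of the other 5 for the 45 genes (rows, grouped by role), clipped at 1 in size; dots mark an adjusted p under 0.05. The substantia nigra/VTA column holds 14 dots, all on higher genes, and the vermis column 19, with 10 on higher and 9 on lower genes.

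The 11S activator showed the largest difference of the substantia nigra/VTA. Psme1 had 2429 in SHR, 1460 in WKY, 2345 in SD-PCB and 1907 in SD in this region, against 590 to 1857 with a median of 1025 on the 20 arrays of the other regions. Each strain group had its highest Psme1 signal here, and the log2 difference was 0.95 ± 0.13, or 1.94-fold (adjusted p = 4.75e-06). Its partner Psme2 had 1532 in SHR, 932 in WKY, 1124 in SD-PCB and 1055 in SD, against 504 to 1159 with a median of 703 elsewhere (0.62 ± 0.12, adjusted p = 0.000423). The single-chain activator Psme4 gave 0.09 and did not pass, while its second tested probe set was higher (0.45 ± 0.14, adjusted p = 0.0174). The third of the largest was the lid gene Psmd12, with 3812 in SHR, 3475 in WKY, 2881 in SD-PCB and 4066 in SD. All 4 arrays lay above the 20 others, at 1846 to 2840 with a median of 2351, and the log2 difference was 0.57 ± 0.09 (adjusted p = 2.42e-05).

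Base genes were also higher in the substantia nigra/VTA: the ATPases Psmc5, Psmc6 and Psmc1 by 0.52, 0.35 and 0.34, and the scaffolds Psmd1 and Psmd2 by 0.41 and 0.25. Chaperones followed, with Psmd10, which escorts a base ATPase, at 0.51 ± 0.11 (adjusted p = 0.000815), and the core chaperones Psmg1 and Psmg3 at 0.49 and 0.48. In the core the catalytic Psmb5 (0.31 ± 0.12, adjusted p = 0.0497) and the structural beta subunit Psmb1 (0.28 ± 0.07, adjusted p = 0.00470) were higher, and none of the 7 alpha ring genes passed. The lid gene Psmd6 was higher by 0.26. The count fell to 6 without the SHR arrays, to 8 without the WKY arrays and to 7 without the SD arrays, and was 11 without the WKY prefrontal cortex array. Psme1, Psme2 and Psmd12 passed in each of these settings. Markers moved with the region: 4 of 5 oligodendrocyte genes, 5 of 7 meningeal genes and 4 of 5 endothelial genes tested and Hbb (0.53) were higher in the substantia nigra/VTA. Neuronal markers were higher for 1 of 4 and lower for 2, and astrocyte markers were higher for 2 of 5 and lower for 2. Microglial markers were higher for 1 of 6. Summed meningeal signal there was 7070 to 22325, and summed oligodendrocyte signal 25315 to 51069. Their part in the proteasome differences was not tested.

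**Figure D4:**
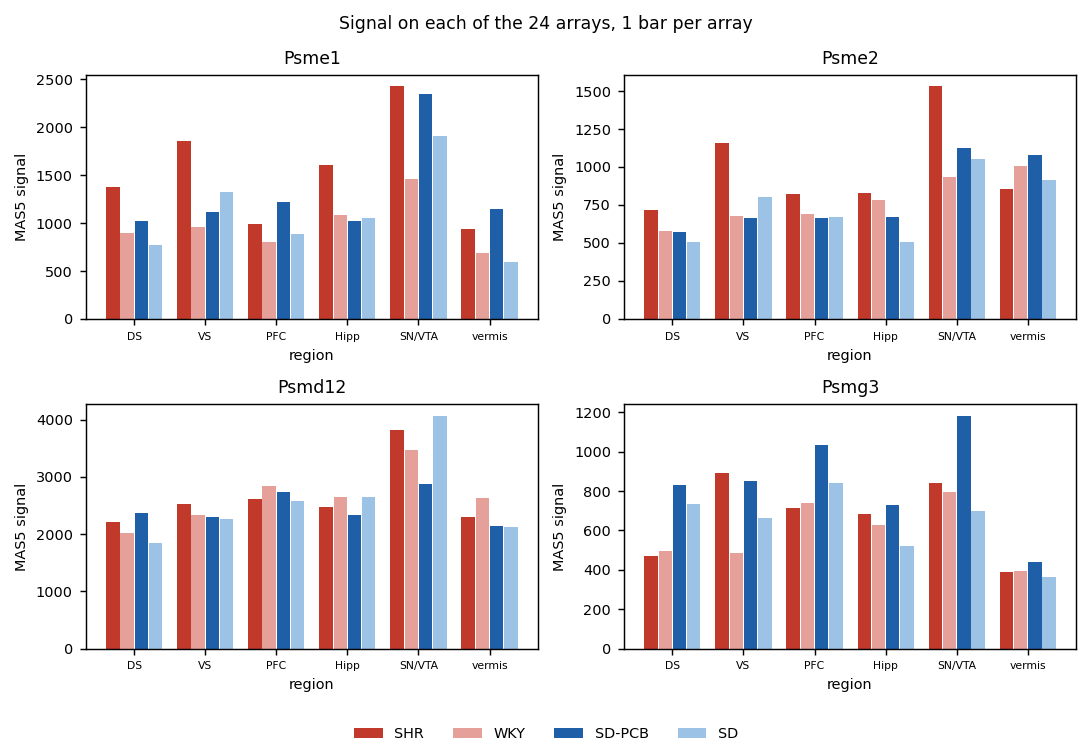
MAS5 signal (linear axis from 0) of Psme1, Psme2, Psmd12 and Psmg3 on each of the 24 arrays, by region and strain group (abbreviations as in the plot of signals by strain). Psme1 reaches 1460 to 2429 in the substantia nigra/VTA, and Psmg3 lies between 365 and 442 on the 4 vermis arrays, below all others.

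Of the 13 genes of the 20S core 6 were higher in the vermis, 0 were lower and 7 did not pass, with a median of 0.19, where 22.6% of all tested probe sets and 27.3% of the brightest 25% were higher. Without the WKY arrays the count of higher genes over all 43 fell to 4, against 10 with them, with 9 lower in both, and the median of the 45 genes was -0.01, against 0.061. Psma3 (0.38 ± 0.09, adjusted p = 0.00164) had 1860 in SHR, 1370 in WKY, 2606 in SD-PCB and 1913 in SD, against 1149 to 2127 with a median of 1400 elsewhere; the WKY array lay within the range of the other regions. Psma6, Psma1 and Psma2 were higher by 0.34, 0.28 and 0.26, and Psmb4 by 0.36 ± 0.07 (adjusted p = 0.000142). Psmb2, a structural beta subunit, had 445 in SHR, 377 in WKY, 473 in SD-PCB and 500 in SD, against 157 to 501 with a median of 297 elsewhere (0.56 ± 0.20, adjusted p = 0.0254). The Psmb2 call was lost without the SHR, the WKY or the SD arrays (adjusted p between 0.0778 and 0.0832). The ATPases Psmc2 and Psmc6 were higher by 0.30 and 0.28, and the activator Psme2 by 0.33. Other tested probe sets of Psmc6 gave 0.16 and -0.14 in the vermis and did not pass.

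Of the cap, 2 scaffolds of the base and 2 of the 8 lid genes were lower in the vermis. Psmd2 had 1031 in SHR, 765 in WKY, 848 in SD-PCB and 797 in SD, against 1008 to 1468 with a median of 1193 elsewhere, and the SHR array alone reached into that range (-0.52 ± 0.09, adjusted p = 7.27e-05). Psmd1, Psmd3 and Psmd7 were lower by -0.48, -0.45 and -0.30 and the ATPase Psmc5 by -0.49. Over all 17 base and lid genes 2 were higher and 5 lower, with a median of -0.13. Without the ATPases, that is over the base scaffolds, Psmd4 and the lid, 0 of 11 genes were higher and 4 lower (median -0.26). Of all tested probe sets 22.6% were higher and 26.3% lower, and of the brightest 25% the shares were 27.3% and 30.8%. Another tested probe set of the lid gene Psmd14 was higher (0.33 ± 0.11, adjusted p = 0.0167). Psme1 was lower as well, with 940 in SHR, 689 in WKY, 1147 in SD-PCB and 590 in SD, against 767 to 2429 with a median of 1100 elsewhere (-0.60 ± 0.13, adjusted p = 0.000543), so the 2 genes of the 11S ring differed from the other regions in opposite directions. The largest difference among tested genes was that of the core chaperone Psmg3 (-0.86 ± 0.13, adjusted p = 1.31e-05). This gene had 389 in SHR, 394 in WKY, 442 in SD-PCB and 365 in SD, all below the 468 to 1182 of the other 20 arrays. Its fellow Psmg4 was lower by -0.48 ± 0.16, while Psmg2 was higher (0.54 ± 0.16, adjusted p = 0.00619), with 402 in SHR, 539 in WKY, 301 in SD-PCB and 402 in SD against 197 to 422 elsewhere. Without the WKY arrays Psmg2 did not pass (0.34, adjusted p = 0.116). Psmb10 was lower by -0.49 ± 0.20 (adjusted p = 0.0424). Neuronal markers were higher in the vermis for 3 of 4 tested and lower for 1. Microglial markers were lower for 4 of 6, and oligodendrocyte markers were lower for 3 of 5 and higher for 1. Endothelial markers were lower for 2 of 5 and meningeal markers higher for 2 of 7. Astrocyte markers were higher for 2 of 5 and lower for 1, and Hbb was higher (0.74). The part of these markers in the proteasome differences was not tested.

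**Figure D5:**
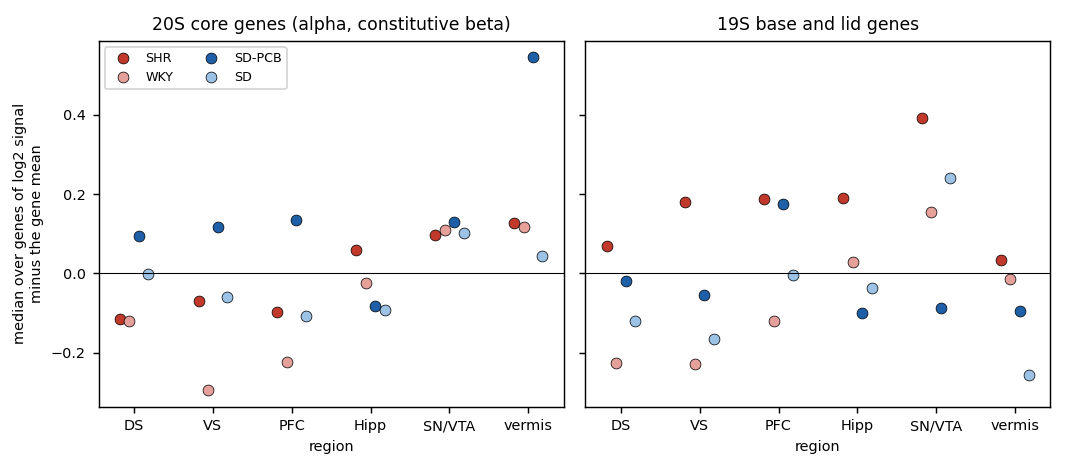
Median over the 13 core genes (left) and over the 17 base and lid genes (right) of the log2 signal minus each gene's mean over 24 arrays, with 1 point per array and abbreviations as above. In the vermis the core median of each strain group lies above its 19S median, by 0.09 to 0.64, with the widest gap on the SD-PCB array.

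The balance of core and cap was read on each array as the median deviation of the 13 core genes minus that of the 17 base and lid genes. In the vermis it was 0.29 ± 0.25 (mean ± standard deviation, n = 4 arrays), with 0.09 to 0.64 over the 4 arrays. In the prefrontal cortex it was -0.13 ± 0.11, and the other 4 regions averaged -0.07 to 0.04. Because these are the same values as in the tests above, they are a description. Over the strain groups it averaged -0.18 on SHR arrays, -0.0047 on WKY arrays, 0.19 on SD-PCB arrays and 0.038 on SD arrays.

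In the dorsal striatum Psme2 had 716 in SHR, 581 in WKY, 573 in SD-PCB and 504 in SD, against 509 to 1532 with a median of 823 on the arrays of the other regions (-0.52 ± 0.12, adjusted p = 0.00377). Psmc6, Psmd12 and Psmb4 were also lower there, by -0.36, -0.33 and -0.19, with adjusted p of 0.00768, 0.00847 and 0.0499. Other tested probe sets of Psmc6 gave -0.21 and -0.17 there and did not pass. The calls of Psmc6 and Psmd12 were lost without the SHR, the WKY or the SD arrays, and Psme2 kept its call in each of these. Without the WKY prefrontal cortex array the dorsal striatum had 3 calls and the vermis 19. Markers in the dorsal striatum were lower for 7 of 7 meningeal and 2 of 4 neuronal genes tested, with summed meningeal signal of 2193 to 4315. Astrocyte markers were higher for 1 of 5 and lower for 2, and oligodendrocyte markers were higher for 1 of 5. Endothelial markers were lower for 1 of 5, and Hbb was lower (-0.35). The part of all these markers in the proteasome differences was not tested. In the prefrontal cortex Psmg3 was higher (0.40 ± 0.13, adjusted p = 0.0346), with 713 in SHR, 737 in WKY, 1032 in SD-PCB and 843 in SD, and Psma2 was lower (-0.25 ± 0.09, adjusted p = 0.0423), with 3438 in SHR, 3456 in WKY, 3570 in SD-PCB and 3525 in SD. Both prefrontal calls were lost without the WKY prefrontal cortex array, at adjusted p of 0.103 and 0.0630. In this region 4 of 5 oligodendrocyte markers were lower, and of the 5 astrocyte markers 3 were lower and 1 higher. The part of these markers was not tested.

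Subunit genes varied together only in part. After removing the strain group and region means, the 903 pairs of tested genes had a median correlation of 0.20 over the 24 arrays (-0.82 to 0.89). The median was 0.33 for the 136 pairs within base and lid, 0.26 for the 78 pairs within the core and 0.25 for the 221 pairs between core and cap. The closest pairs were the ATPase Psmc2 with the lid gene Psmd6 (0.89) and Psmb10 with Psmd8 (0.87), and the most opposed was Psmd11 with Psmd9 (-0.82). Arrays share their scaling and RNA, which all genes on an array have in common, so these values are descriptions.

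On a list of 32 further symbols of the ubiquitin and proteasome pathway, some genes stand under both an older and a newer symbol. Under these symbols 24 genes were measured, and all 24 were tested. In SHR minus WKY 7 were higher and 6 lower, where 16.4% and 15.7% of all tested probe sets were. Adrm1, the ubiquitin receptor of the base, was higher by 1.41 ± 0.21 (adjusted p = 4.97e-05), and Bag6, a chaperone for misplaced membrane proteins, by 0.72 ± 0.16 (adjusted p = 0.00202). The lid subunit gene Sem1, the core maturation factor Pomp, the unfolding ATPase Vcp, the ubiquitin-activating enzyme Uba1 and the ubiquitin ligase Stub1 were higher by 0.41, 0.44, 0.35, 0.39 and 0.54. Ube2n, a ubiquitin-conjugating enzyme, was lower by -0.83 ± 0.09 (adjusted p = 4.45e-07), and the proteasome-bound ligase Ube3c by -0.40 ± 0.09 (adjusted p = 0.00153). Also lower were Ube3a, Nfe2l1, Rad23b and Ubqln2 (-0.62, -0.53, -0.30 and -0.28), of which Nfe2l1 is the factor that raises subunit genes when the proteasome is inhibited. In SD-PCB minus SD 3 were higher and 2 lower, where 14.7% and 16.9% of all tested probe sets were: the shuttle factor Rad23b (0.52 ± 0.10, adjusted p = 0.000449), the proteasome-bound deubiquitinase Uchl5 (0.45 ± 0.12, adjusted p = 0.00487) and Sem1 (0.33 ± 0.11, adjusted p = 0.0306) were higher, and the oxidative stress factor Nfe2l2 (-0.61 ± 0.22, adjusted p = 0.0399) and the proteasome adaptor Ecpas (-0.27 ± 0.10, adjusted p = 0.0478) were lower. The strain directions of these genes depend in part on the scaling. Centring arrays on their medians moved the median of all tested probe sets from -0.01 to 0.71 in SD-PCB minus SD. In SHR minus WKY centring moved that median from 0.040 to -0.30. With the array median as a covariate, 0 of all tested probe sets were called in SD-PCB minus SD. Values of the single pathway genes under these alternatives are not given. By region, 5 of the 24 were higher and 1 lower in the substantia nigra/VTA (16.9% and 16.5% of all tested probe sets). In the vermis 2 were higher and 8 lower (22.6% and 26.3%).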

How the data were processed

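Signals on 24 rat arrays were analysed, 1 for each of 4 strain groups in each of 6 regions, as the labels name them. Per the labels, RNA was isolated with RNeasy, amplified with Ovation and biotinylated, and the authors deposited MAS5 intensity values on a linear scale; the MAS5 version is not given in the sources used here. The median 2% trimmed mean was 497.6. After 57 control probe sets were left out, 31042 remained, of which 20826 carry 1 gene symbol, 436 several and 9780 none. The array number limits the precision.

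Intensities were used as log2(signal + 1), without further normalization, and 15521 probe sets at or above the median mean (a mean signal of 116.2) entered 1 linear model per probe set (limma 3.58.1, R 4.3.3) on region and strain group, with a mean-variance trend and Benjamini-Hochberg adjustment at 0.05. With 15 residual degrees of freedom and 1 array per group and region, region acts as the block that pairs arrays of different groups. Folds are on the log2(signal + 1) scale. The fitting code was tested on simulated data. Genes named with values are the catalytic and immunoproteasome subunits, up to 5 genes each way that passed with 1 sign in all 6 regions, the 5 smallest p of the difference of the models, and up to 3 each way per region; further members are given by role. Members and lists were chosen with earlier results of these data known. Of the gene family, 1 gene is not reported here. Alternatives were quantile and cyclic loess normalization, centring on array medians, a pseudocount of 16, no filter or the brightest 25%, array weights, the array median as a covariate, no region term, the mean of all probe sets, only the compared groups, leaving out each region or strain group and, chosen after seeing the data, leaving out the WKY prefrontal cortex array. Figures were drawn with matplotlib 3.10.9.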

Additional observations from a re-analysis of the deposited data

Results flagged for a closer look

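By the brightest probe sets, the change in the genetic model differed from that in the exposure model for 13 genes. The limma test was of (SHR minus WKY) minus (SD-PCB minus SD). Above 0 on the log2 scale were Psmc4 (1.07), Psmd1 (1.05), Psmc5 (0.999), Psmg2 (0.87), Psmb3 (0.844), Psmc1 (0.462) and Psma4 (0.39). Below 0 were Psmb4 (-0.358), Psma3 (-0.415), Psma5 (-0.435), Psma1 (-0.641), Psme4 (-0.667) and Psmd11 (-0.781). With arrays centred on their medians 0 genes were above 0. The second tested probe set of Psmd11 gave the other sign, at 0.28, and did not pass. That of Psme4 passed above 0 (0.68, adjusted p = 0.0137), so the probe sets of Psme4 passed in opposite directions. Other tested probe sets of Psmd14 (-0.69 and -0.63) and Psmc6 (-0.99 and -0.45) passed below 0.

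In 4 of the 70 groups checked, 1 array lay far from the others of its group, where chance gives about 1 in 20. Among the WKY arrays, vermis stood apart for Psmb10 (0.607 above the region mean on the log2 scale, with 261 in WKY) and for Psmd11 (-0.109, with 3897 in WKY). Among the SD arrays, vermis stood apart for Psmc5 (-0.324, with 950 in SD). Among the vermis arrays, WKY stood apart for Psma3 (0.00507 against the strain group mean, with 1370 in WKY, against 1860 in SHR, 2606 in SD-PCB and 1913 in SD).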

How the results depend on the processing

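With 1 array per strain group and region, the number of arrays limits the precision, and Psmb9 and Psmc3ip lay below the filter. Counts are of the 43 tested genes, fewer with the brightest 25% or the mean of all probe sets. Apart from smaller numbers of arrays or probe sets where these were left out, the cause of the shifts was not tested. In SHR minus WKY, Psmb3 and Psmd1 passed in the same direction in each alternative run.

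With arrays centred on their medians, SHR minus WKY had 3 genes higher and 13 lower (median -0.17), SD-PCB minus SD 41 and 0 (median 0.83), SHR minus SD a median of 0.18, WKY minus SD 31 and 0 (median 0.39), and the difference of the models 0 above and 36 below (median -0.98). With the array median as a covariate, SHR minus WKY had 3 higher and 0 lower, SD-PCB minus SD 0 and 0, SHR minus SD 2 lower, WKY minus SD 0 and 0, and the difference of the models 0 and 0. With no replicate block, that is without the region term, SHR minus WKY had 6 higher, SD-PCB minus SD 3 higher and 1 lower, SHR minus SD 6 higher, WKY minus SD 1 higher and 1 lower, and the difference of the models 3 below. Quantile normalization gave 4 higher in SD-PCB minus SD, 2 lower in SHR minus SD and 3 below in the difference of the models; loess gave 3 higher in SD-PCB minus SD and 4 calls in the prefrontal cortex. With the brightest 25%, SD-PCB minus SD had 1 lower and SHR minus SD 2 lower. With only the 2 compared groups, SD-PCB minus SD had 3 higher and 1 lower and SHR minus SD 2 lower. The mean of all probe sets gave 2 lower in SHR minus SD and 1 higher in WKY minus SD, array weights gave 6 lower in WKY minus SD, and no filter gave 0 calls in the prefrontal cortex. Without the WKY prefrontal cortex array, WKY minus SD had 1 higher and the prefrontal cortex 0 calls.

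Leaving out each region in turn gave 4 to 8 genes higher and 0 to 3 lower in SD-PCB minus SD, a median of 0.098 to 0.17 in SHR minus SD, and 0 to 3 higher and 0 to 4 lower in WKY minus SD. Leaving out each strain group gave 1 to 4 calls in the dorsal striatum, 0 to 2 in the prefrontal cortex, 6 to 16 in the substantia nigra/VTA and 13 to 16 in the vermis, where the higher genes numbered 4 without the WKY arrays, against 10 with all arrays.

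Signs turned for these single genes. In SHR minus WKY, Psma3 gave 0.066 with quantile normalization, 0.055 with loess, 0.0069 with the covariate, 0.0074 without the WKY prefrontal cortex array and -0.095 to 0.049 on leaving out a region. With arrays centred on their medians, Psma5 gave -0.27, Psmb5 -0.027, Psmb7 -0.27 and Psmg3 -0.18, and with the covariate Psmb7 gave -0.072 and Psmg3 -0.093. In SD-PCB minus SD, centring gave 0.49 for Psmb10, 0.61 for Psmb3, 0.35 for Psmc5 and 0.25 for Psmg2. The covariate gave 0.0022 for Psmc5, -0.25 for Psmd1, -0.16 for Psmd11 and 0.0074 for Psmg2. Psmb10 gave 0.20 with quantile normalization and 0.027 with loess, and Psmd1 gave -0.15 and -0.10. The mean of all probe sets gave -0.50 for Psmd11. Leaving out a region gave -0.18 to 0.0037 for Psmb3 and -0.12 to 0.13 for Psmd1.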
